A study of Mus musculus with 10 samples.

Results

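The imprinted growth gene network is a group of genes that are read from 1 parental copy, are active in the fetus and are switched down after birth. The description covers 10 of its genes, Mest, H19, Igf2, Dlk1, Meg3, Peg3, Plagl1, Grb10, Cdkn1c and Sgce, each found by its symbol as 1 row among the 24016 transcripts measured in the liver. They were chosen by their RPKM values in AdVEGF against AdCMV liver, the same values that are given below, so that this difference is described for them and not tested.

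The mice were male C57/Bl6 animals (strain C57BL/6 in the labels), 8 to 12 weeks of age, injected through the tail vein. AdVEGF mice (n = 5) received a serotype 5 adenovirus from which VEGF-A165, the main soluble form of the growth factor of blood vessels, is expressed under the CMV promoter. AdCMV mice (n = 5) received an adenovirus with the same promoter and no transgene, so that both groups carried virus and neither was left uninjected. A CMV promoter is not restricted to one cell type, and an injected adenovirus mostly enters hepatocytes. Whole liver was taken on day 6 after perfusion, and its total RNA was depleted of ribosomal RNA and sequenced. The values are RPKM, read numbers divided by the length of the transcript and the size of the library, and measure the summed level of both parental copies.

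The libraries held between 5758959 and 13494002 mapped tags in the AdCMV group and between 5596564 and 8133954 in the AdVEGF group. Vegfa was at 18.1 ± 3.49 RPKM (SD, n = 5) in AdCMV mice and at 31.8 ± 4.65 RPKM in AdVEGF mice, with no overlap between the groups. This row is that of the mouse gene, whereas the authors measured VEGF protein with an assay for human VEGF. How far the row counts reads of the transgene was not tested. The 21 genes of the major urinary proteins (Mup) took 18.0% to 50.5% of the reads of an AdCMV library and 7.84% to 28.6% of an AdVEGF library. With RPKM as deposited, the log2 fold changes of 13933 tested genes had a median of 0.38, and after median-ratio scaling, which sets the typical gene of each library to the same level, the median was -0.00442. Log2 fold changes below are AdVEGF minus AdCMV, on the scale of log2(RPKM + 0.1), which understates the change of low genes.

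Imprinted genes carry a methylation mark set in the egg or the sperm, so that one parental copy stays silent. Paternally expressed members such as Igf2, Mest, Dlk1, Peg3 and Plagl1 mostly promote growth before birth, and maternally expressed members such as H19, Grb10 and Cdkn1c mostly restrain it. The adult liver keeps most of them at a low level. Several lie in clusters, as Igf2 with H19 and Dlk1 with Meg3, and several host a microRNA in their transcript.

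The microRNAs encoded within the members are shown because they are separate products of the same transcripts. In RefSeq (GRCm38.p6), 9 mature microRNAs lay within 4 members, and they had 9 different seeds, so that none shared a seed with another. The seed, bases 2 to 8, is in capitals. Those printed, with the 5p arm of miR-483 left out, are of Mest (miR-335, chr6:30741314-30741336 for the 5p arm, plus strand), H19 (miR-675, chr7:142577112-142577133 for the 5p arm, minus strand) and Igf2 (miR-483, chr7:142654932-142654952 for the 3p arm, minus strand).
miR-335-5p: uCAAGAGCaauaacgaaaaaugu
miR-335-3p: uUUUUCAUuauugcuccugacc
miR-675-5p: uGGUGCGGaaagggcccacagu
miR-675-3p: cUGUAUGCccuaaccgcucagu
miR-483-3p: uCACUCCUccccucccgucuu

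Promoters are shown for 3 members that lay far apart between the groups, with each CG, the pair of bases that carries DNA methylation, in capitals. RefSeq promoters, 250 bases before to 50 bases after a start in GRCm38.p6, were matched for 7 of the 10 members, 14 promoters in all, and not for H19, Cdkn1c and Sgce. The promoters printed are those of Mest at chr6:30737800-30738099 (plus strand), of Plagl1 at chr10:13090582-13090881 (plus strand) and of Grb10 at chr11:12037371-12037670 (minus strand).
Mest: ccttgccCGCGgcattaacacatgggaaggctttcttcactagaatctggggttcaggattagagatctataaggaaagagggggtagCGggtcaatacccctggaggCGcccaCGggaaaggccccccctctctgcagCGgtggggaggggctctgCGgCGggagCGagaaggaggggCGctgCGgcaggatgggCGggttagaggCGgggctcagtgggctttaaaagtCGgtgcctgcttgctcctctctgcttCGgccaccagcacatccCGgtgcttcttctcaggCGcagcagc
Plagl1: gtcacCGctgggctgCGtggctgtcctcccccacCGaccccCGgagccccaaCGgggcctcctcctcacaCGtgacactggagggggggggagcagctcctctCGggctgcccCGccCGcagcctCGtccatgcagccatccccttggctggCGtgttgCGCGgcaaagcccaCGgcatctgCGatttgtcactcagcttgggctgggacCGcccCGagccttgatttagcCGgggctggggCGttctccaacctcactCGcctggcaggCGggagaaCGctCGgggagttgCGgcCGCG
Grb10: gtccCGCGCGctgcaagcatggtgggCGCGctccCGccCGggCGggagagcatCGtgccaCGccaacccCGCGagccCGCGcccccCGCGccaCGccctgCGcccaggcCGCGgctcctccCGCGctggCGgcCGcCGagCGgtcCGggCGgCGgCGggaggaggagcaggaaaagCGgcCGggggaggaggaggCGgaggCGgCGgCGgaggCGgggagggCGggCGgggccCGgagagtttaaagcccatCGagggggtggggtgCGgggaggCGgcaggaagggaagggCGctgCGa

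Of these, the Mest promoter held 17 CG pairs, that of Plagl1 26 and that of Grb10 45 (98.1 percentile), against a median of 7 over 32851 promoters. Mest and Grb10 each have another promoter in RefSeq that lay near this median, with 8 CG pairs for Mest (51.4 percentile) and 9 for Grb10 (54.2 percentile). Promoters were matched by symbol and not by the start of the measured row. The promoter printed for a gene, such as that of Grb10, need therefore not be that of the measured transcript. The ETS core CCGGAA, searched on both strands, was in 1 of the 14 promoters (Meg3) and in 14.9% of all promoters. The hypoxia response core ACGTG was in 3 of the 14 (Plagl1, Igf2 and Dlk1) and in 19.6% of all. TATAAA was in 1 of the 14 (Meg3) and in 13.6% of all. These are matches of letters, and no methylation or binding was measured here.

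All 10 members had a higher mean in AdVEGF than in AdCMV liver, and their distance between the groups ran from a 40.6-fold difference of means for Mest to a few reads for Dlk1. Of the 10, 8 passed the filter on low values, which asked for a mean above 0.5 RPKM in either group, and Igf2 and Dlk1 did not. Mest, Grb10, H19, Plagl1 and Sgce lay past the thresholds used for calls, and Meg3, Cdkn1c and Peg3 did not. A gene was called where its log2 fold change was beyond 1 or -1 and limma gave it an adjusted p (Benjamini-Hochberg) below 0.05. Of all genes, 13% passed upward and 1.54% downward, and with median-ratio scaling 7.77% and 3.14% did, where the same 5 members were past the thresholds. In the same 5 members every AdVEGF mouse lay above every AdCMV mouse, which held for 14.3% of all genes. Since the members were chosen with this contrast known, nothing is read from their counts. In whole liver, fewer or more cells of a type and less or more RNA per cell cannot be told apart.

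**Figure D1:**
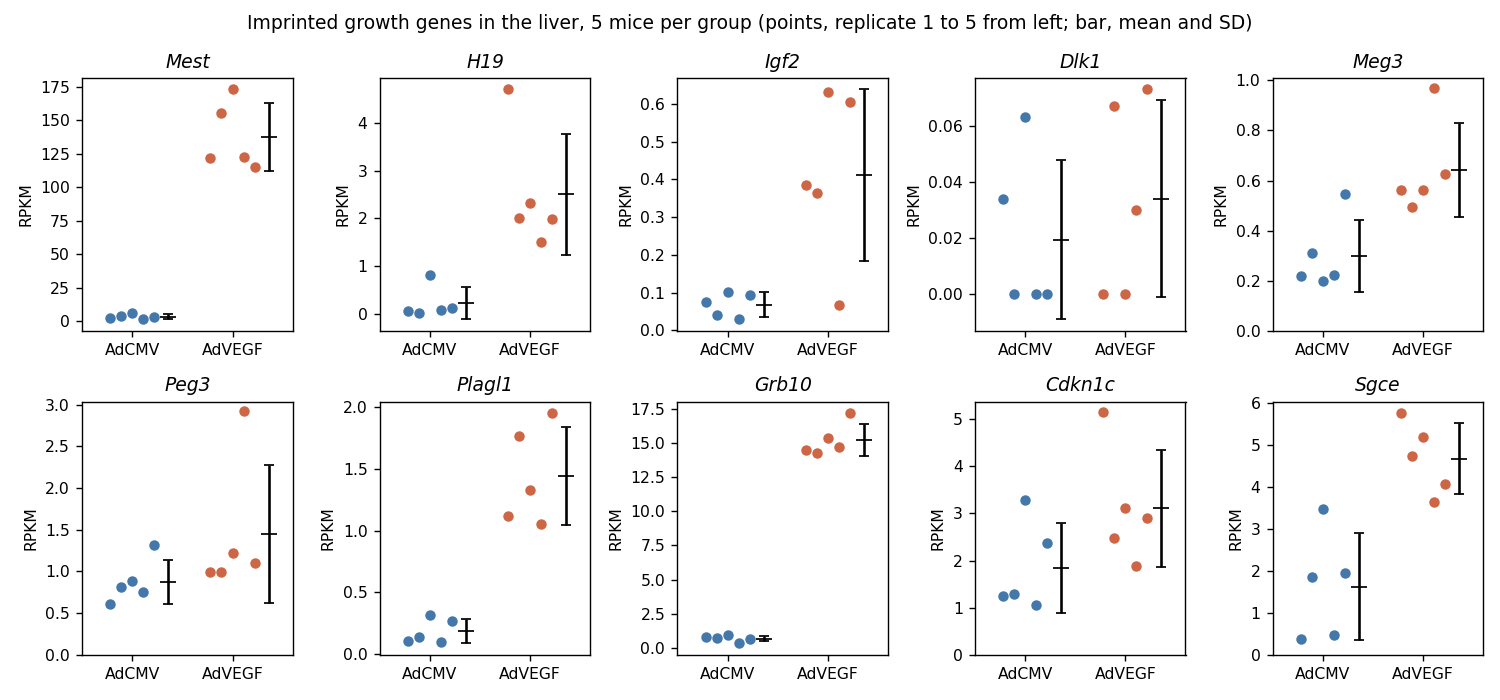
RPKM of the 10 members (vertical axes, each with its own range) in 5 AdCMV and 5 AdVEGF mice, 1 point per mouse with replicates 1 to 5 from left to right, and the mean and SD as a bar. The groups stand apart for Mest, H19, Plagl1, Grb10 and Sgce and overlap for Igf2, Dlk1, Meg3, Peg3 and Cdkn1c.

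Among the paternally expressed members, Mest, which encodes an enzyme-like protein of the endoplasmic reticulum first found in mesoderm, was the highest in both groups. It lies on the plus strand at chr6:30688050-30698466 in mm9, the build of the deposited table. Mest was at 2.65, 4.18, 5.92, 1.33 and 2.86 RPKM in AdCMV replicates 1 to 5 and at 122, 155, 173, 123 and 115 RPKM in AdVEGF replicates 1 to 5. The groups did not overlap, and the lowest AdVEGF mouse was far above the highest AdCMV mouse. The means were 3.39 ± 1.74 RPKM (SD, n = 5) and 138 ± 25.2 RPKM (SD, n = 5), from 32 to 144 and from 1747 to 2945 reads per mouse. The log2 fold change was 5.44 (SE 0.30), and 5.05 after median-ratio scaling.

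Sgce encodes epsilon-sarcoglycan, a membrane protein of the dystrophin-associated complex, and lies on the minus strand at chr6:4624350-4697204 in mm9. It was at 0.386, 1.86, 3.47, 0.474 and 1.94 RPKM in AdCMV replicates 1 to 5 and at 5.77, 4.74, 5.19, 3.64 and 4.07 RPKM in AdVEGF replicates 1 to 5. The AdCMV mice spread widely, and the highest of them, replicate 3, came close to the lowest AdVEGF mouse without reaching it. The means were 1.63 ± 1.27 and 4.68 ± 0.852 RPKM (SD, n = 5 each), and the log2 fold change was 1.84 (SE 0.44), or 1.47 after median-ratio scaling. Sgce was the member just inside the call thresholds. Under the stricter call rule of limma's treat, which asks for a change beyond a log2 fold change of 1 and which 3.61% of all genes met upward, Sgce was the member no longer counted, and this too is a description of the values that chose it.

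Plagl1, a zinc finger transcription factor known to act on other imprinted genes, was low in every mouse. Its row lies on the plus strand at chr10:12810594-12851501 in mm9. Its level was 0.105, 0.141, 0.314, 0.101 and 0.264 RPKM in AdCMV replicates 1 to 5 and 1.12, 1.77, 1.33, 1.05 and 1.95 RPKM in AdVEGF replicates 1 to 5. No AdVEGF mouse reached down to the AdCMV mice. The means were 0.185 ± 0.0978 and 1.44 ± 0.399 RPKM (SD, n = 5 each), a 7.8-fold difference, from 4 to 13 and from 33 to 69 reads per mouse. Its log2 fold change was 2.47 (SE 0.36) and depended on the constant added before the logarithm, being 1.03 with 1 and 3.00 with 0.01.

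Peg3, a zinc finger protein known for its part in growth and maternal care, differed little apart from 1 mouse. It lies on the minus strand at chr7:6658671-6683130 in mm9. It was at 0.606, 0.818, 0.883, 0.754 and 1.31 RPKM in AdCMV replicates 1 to 5 and at 0.996, 0.998, 1.22, 2.92 and 1.10 RPKM in AdVEGF replicates 1 to 5. AdCMV replicate 5 lay above all AdVEGF mice except replicate 4, whose 157 reads compare with 37 to 49 in the other AdVEGF mice. The means were 0.875 ± 0.266 and 1.45 ± 0.828 RPKM (SD, n = 5 each). Its log2 fold change was 0.58 (SE 0.33), 0.31 without AdVEGF replicate 4 and 0.21 after median-ratio scaling.

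Igf2, the fetal growth factor of the network, was close to the limit of detection. Its row lies on the minus strand at chr7:149836673-149843386 in mm9. It was at 0.075, 0.040, 0.103, 0.029 and 0.094 RPKM in AdCMV replicates 1 to 5, from 1 to 3 reads per mouse. In AdVEGF replicates 1 to 5 it was at 0.386, 0.365, 0.630, 0.067 and 0.605 RPKM, from 8, 10, 13, 2 and 15 reads. AdVEGF replicate 4 lay among the AdCMV mice, and the other 4 AdVEGF mice lay above them. Summed over mice, 10 reads in AdCMV and 48 in AdVEGF gave a ratio of 6.28 per mapped tag, with an exact 95% interval of 3.13 to 13.9 that covers counting error only. Without the filter on low values, Igf2 had a log2 fold change of 1.46 (SE 0.38) and lay past the call thresholds, as did 10.4% of the 18554 genes then tested.

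Dlk1, a membrane protein related to the Notch ligands and a mark of the fetal hepatoblast, was at or near 0. Its row lies on the plus strand at chr12:110691665-110701546 in mm9. It had 0 reads in 3 of the 5 AdCMV mice and in 2 of the 5 AdVEGF mice, and at most 2 reads, or 0.073 RPKM, in any mouse. With 3 reads over the AdCMV group and 5 over the AdVEGF group, no difference was detectable at this depth.

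Among the maternally expressed members, Grb10, an adaptor protein that restrains signalling of the insulin and IGF receptors, had the narrowest spread in AdVEGF mice for its level. It lies on the minus strand at chr11:11830502-11927974 in mm9. It was at 0.757, 0.718, 0.909, 0.335 and 0.659 RPKM in AdCMV replicates 1 to 5 and at 14.5, 14.3, 15.4, 14.7 and 17.2 RPKM in AdVEGF replicates 1 to 5. All AdVEGF mice lay far above all AdCMV mice. The means were 0.676 ± 0.212 and 15.2 ± 1.17 RPKM (SD, n = 5 each), a 22.5-fold difference, from 15 to 46 and from 387 to 568 reads per mouse. The log2 fold change was 4.35 (SE 0.24), and 3.98 after median-ratio scaling.

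H19, a long non-coding RNA that lies beside Igf2 and is the precursor of miR-675, was almost absent from 4 of the 5 AdCMV mice. It lies on the minus strand at chr7:149761437-149764051 in mm9. It was at 0.053, 0.028, 0.825, 0.081 and 0.133 RPKM in AdCMV replicates 1 to 5, from 1, 1, 17, 2 and 2 reads. In AdVEGF replicates 1 to 5 it was at 4.70, 2.01, 2.32, 1.50 and 1.99 RPKM, from 69, 39, 34, 32 and 35 reads. AdCMV replicate 3 and AdVEGF replicate 1 were each the highest of their group, and the groups did not overlap. The means were 0.224 ± 0.338 and 2.51 ± 1.26 RPKM (SD, n = 5 each), and the ratio of summed reads per mapped tag was 11.9 (exact 95% interval 7.71 to 19.2, counting error only). The log2 fold change was 3.34 (SE 0.49), 1.49 with a constant of 1 and 4.26 with 0.01. It was 3.83 without AdCMV replicate 3 and 3.10 without AdVEGF replicate 1.

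Cdkn1c encodes p57, an inhibitor of cyclin-dependent kinases that holds cells out of division. It lies on the minus strand at chr7:150644244-150646955 in mm9. It was at 1.24, 1.29, 3.28, 1.06 and 2.38 RPKM in AdCMV replicates 1 to 5 and at 5.16, 2.48, 3.11, 1.88 and 2.90 RPKM in AdVEGF replicates 1 to 5. The groups overlapped, since AdCMV replicates 3 and 5 lay within the range of the AdVEGF mice. The means were 1.85 ± 0.952 and 3.10 ± 1.24 RPKM (SD, n = 5 each). Its log2 fold change was 0.77 (SE 0.33) and 0.39 after median-ratio scaling. It was 1.00 without AdCMV replicate 3 and 0.57 without AdVEGF replicate 1.

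Meg3, a long non-coding RNA that lies beside Dlk1, was the member just outside the call thresholds. It lies on the plus strand at chr12:110779206-110809939 in mm9. It was at 0.218, 0.312, 0.200, 0.223 and 0.547 RPKM in AdCMV replicates 1 to 5 and at 0.561, 0.495, 0.563, 0.969 and 0.625 RPKM in AdVEGF replicates 1 to 5. AdVEGF replicate 4 was the highest, and only AdCMV replicate 5 reached into the range of the AdVEGF mice. The means were 0.300 ± 0.145 and 0.643 ± 0.188 RPKM (SD, n = 5 each), from 3 to 8 and from 6 to 15 reads per mouse. The log2 fold change was 0.92 (SE 0.37) and 0.60 after median-ratio scaling. Without AdCMV replicate 5 it was 1.11 and past the thresholds, and without AdVEGF replicate 4 it was 0.78.

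Since RPKM is per length, levels can be set in order within each group. In AdCMV mice the order of means was Mest, Cdkn1c, Sgce, Peg3, Grb10, Meg3, H19, Plagl1, Igf2 and Dlk1, and the ranges of every pair of neighbours in it overlapped. In AdVEGF mice it was Mest, Grb10, Sgce, Cdkn1c, H19, Peg3, Plagl1, Meg3, Igf2 and Dlk1. There the ranges did not overlap between Mest and Grb10, between Grb10 and Sgce, and between Plagl1 and Meg3, while those of the other neighbours did. Within each mouse, Sgce was nevertheless above Cdkn1c, Cdkn1c above H19, and Igf2 above Dlk1 in 5 of 5 AdVEGF mice. The mean of Grb10 lay under that of Peg3 in AdCMV mice, with Peg3 above Grb10 in 3 of 5 of them, and lay above that of Sgce in AdVEGF mice, with Grb10 above Sgce in 5 of 5.

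Within the groups, some mice were the highest or the lowest for several members. AdCMV replicate 3, the AdCMV library with the smallest Mup share (18.0%), had the highest RPKM of its group for 7 of 9 members, Dlk1 left out. AdCMV replicate 4, with the largest share (50.5%), had the lowest for 5 of 9. After median-ratio scaling these numbers were 3 of 9 in both. AdVEGF replicate 4 was the highest of its group for Meg3 and Peg3 and the lowest for 5 of the 9 members, and for 6 of 9 after scaling. In that mouse the summed level of the stellate cell and portal fibroblast markers was 341 RPKM, against 160 to 278 in the other AdVEGF mice, and that of the endothelial markers was 441 RPKM, against 347 to 409. The erythroid markers summed to 1820 RPKM, against 505 to 1170, and the adrenal cortex markers to 4.48 RPKM, against 1.27 to 2.59. Most of that adrenal sum was Cyp21a1, whose highest AdVEGF value was 3.86 RPKM. In AdVEGF mice Cyp11a1 was at most at 0.203 RPKM, and Cyp11b1, Mc2r and Nr5a1 were at 0. The adrenal markers of AdCMV mice summed to 1.63 to 3.74 RPKM. For the hepatocyte, cholangiocyte and mesothelial markers the mouse lay within the range of the other AdVEGF mice, at 32100, 642 and 217 RPKM. In AdVEGF mice Spp1 (mean 531 RPKM) made up nearly all of the cholangiocyte sum. Krt8 (mean 185 RPKM) made up nearly all of the mesothelial sum. These 2 sums therefore say little about the other markers of their lists. The part of any of these markers in the Meg3 and Peg3 values was not tested.

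The genes whose profile over the 10 mice was most like that of a member were found by the root mean square difference of log2(RPKM + 0.1), each profile centred on its own mean. For Mest these were Kcne3 (difference 0.36), Emcn (0.46) and Cd34 (0.51), of which Emcn and Cd34 encode surface proteins of endothelial cells. For Grb10 they were Mecom (0.16), Adam12 (0.28) and Pcdh17 (0.30), and for H19 Hecw2 (0.52), Fam167b (0.53) and the imprinted Asb4 (0.55). Plagl1 was closest to Shank3 (0.23) and to Pcdhgb6 (0.24) and Pcdhga6 (0.25), which share exons of the protocadherin gamma cluster and so cannot be counted apart with certainty. Sgce was closest to D5Ertd605e (0.32), Rapgef5 (0.38) and Lpcat1 (0.39). Of the members that differed less between the groups, Meg3 was closest to Cd320 (0.16), Inafm1 (0.22) and Trf (0.22), Peg3 to Inf2 (0.18), Qsox1 (0.19) and C3 (0.19), and Cdkn1c to St8sia3 (0.18), Clasp2 (0.20) and Oip5 (0.22). Both groups entered each profile, so that a shared difference between the groups counts toward the likeness.

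Other imprinted genes, listed for their imprinting but with earlier results of these data known, were higher in part. Of 65 found, 41 were tested, and 10 of them rose (24.4%, against 13% of all genes) and 31 did not pass, with a median log2 fold change of 0.28 against 0.38 for all genes. None fell by limma, where 2 had an unadjusted p under 0.05 in that direction, and by voom on the recovered reads 10 rose and 0 fell. After median-ratio scaling 7 rose and 2 fell, with a median of -0.07 against -0.00442. The 2 that then fell were Slc22a2 and Ddc.

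The genes that rose were led by Asb4, a subunit of a ubiquitin ligase of vessel cells, from 0.439 ± 0.340 to 6.23 ± 1.73 RPKM (SD, n = 5 each; log2 fold change 3.70, SE 0.35, limma adjusted p = 1.0e-06). Peg10, a retrotransposon-derived gene of the placenta, rose by 3.11 (SE 0.42), Gatm, an enzyme of creatine synthesis, by 1.83 (SE 0.30), and Ndn, a growth-restraining protein of the MAGE family, by 1.67 (SE 0.41). Of the further imprinted genes, Copg2 rose by 3.55 (SE 0.25), the potassium channel gene Kcnq1 by 1.78 (SE 0.31) and the decoy receptor gene Tnfrsf23 by 1.57 (SE 0.41). The row of Copg2 shares 913 bases with that of the member Mest, so its rise may not be separate from that of Mest. Ppp1r9a, Osbpl5 and Tspan32 rose by 1.11, 1.04 and 1.03, and none of these 3 passed after median-ratio scaling. Of the 21 alternative ways of processing, 6 lost the call of Ppp1r9a. The calls of Osbpl5 and of Tspan32 were lost under 10 each. The most abundant listed genes, Gnas (233 ± 51.1 and 329 ± 32.3 RPKM) and Cd81 (145 ± 42.5 and 194 ± 27.7 RPKM), did not pass.

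**Figure D2:**
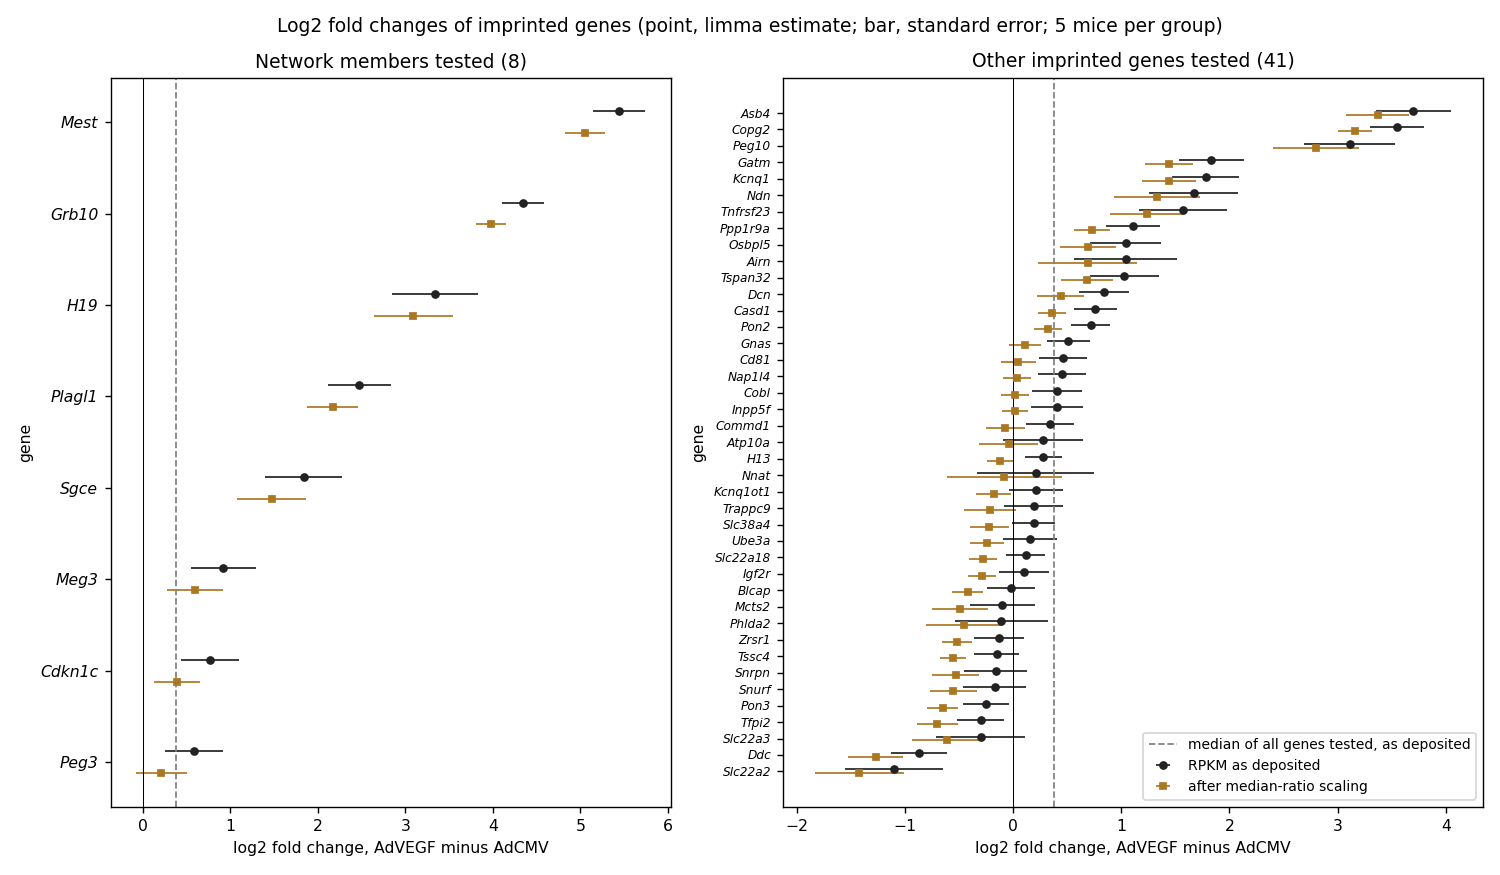
Log2 fold change (AdVEGF minus AdCMV, horizontal axes) of the 8 members tested and of 41 other imprinted genes (vertical axes), with RPKM as deposited (circles) and after median-ratio scaling (squares); bars are standard errors and the dashed line is the median of all genes, 0.38. Mest (5.44) and Grb10 (4.35) lie to the right of every other imprinted gene, of which Asb4 (3.70) is the farthest.

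Imprinted genes lie in domains, so the genes around each member were taken by position, with the left end of their row within 200 kb of that of the member in mm9. Of 111 such genes 71 were at 0 in all 10 mice and 29 were tested. Of the 29, 6 rose (20.7%) and 2 fell (6.9%), against 13% and 1.54% of all genes, and the median log2 fold change was 0.60 against 0.38 for all genes. Of the 29, 7 are also among the other imprinted genes and 1, Col1a2, is among the stellate cell markers. The rows of Mir335, Mir675 and Peg3os lie inside those of Mest, H19 and Peg3, and Copg2 shares bases with Mest. Mir335 and Mir675 passed the filter only through AdVEGF mice. 1700042O10Rik lies inside the row of Ddc. Such rows may not be separate from the genes they overlap, so the shares are a description only.

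The neighbours that rose were Copg2 beside Mest, Peg10 and Col1a2 (3.30, SE 0.35) beside Sgce, Phactr2 (1.83, SE 0.21) beside Plagl1, and Tnfrsf26 (2.13, SE 0.32) and Tnfrsf22 (1.34, SE 0.44) beside Cdkn1c. Tnfrsf22 did not pass after median-ratio scaling, and its call was lost under 12 of 20 alternatives in all. The neighbours that fell rested on few reads. They were 1700042O10Rik beside Grb10, with 3 to 12 reads in AdCMV mice and 0 to 3 in AdVEGF mice, and AF357425, a small RNA beside Meg3, with 0 or 1 read in AdCMV mice and 0 in AdVEGF mice. The call of AF357425 was lost after median-ratio scaling (limma adjusted p = 0.0638) and under 17 of the 21 alternatives in all, and that of 1700042O10Rik under 8 of 20. Around Grb10 itself no tested neighbour rose. Ddc, the imprinted neighbour of Grb10 that makes dopamine and serotonin, was at 41.9 ± 9.54 RPKM in AdCMV and 23.8 ± 8.43 RPKM in AdVEGF mice (SD, n = 5 each), a log2 fold change of -0.87 (SE 0.26) that did not reach the threshold and was -1.27 (limma adjusted p = 0.00282) after median-ratio scaling.

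**Figure D3:**
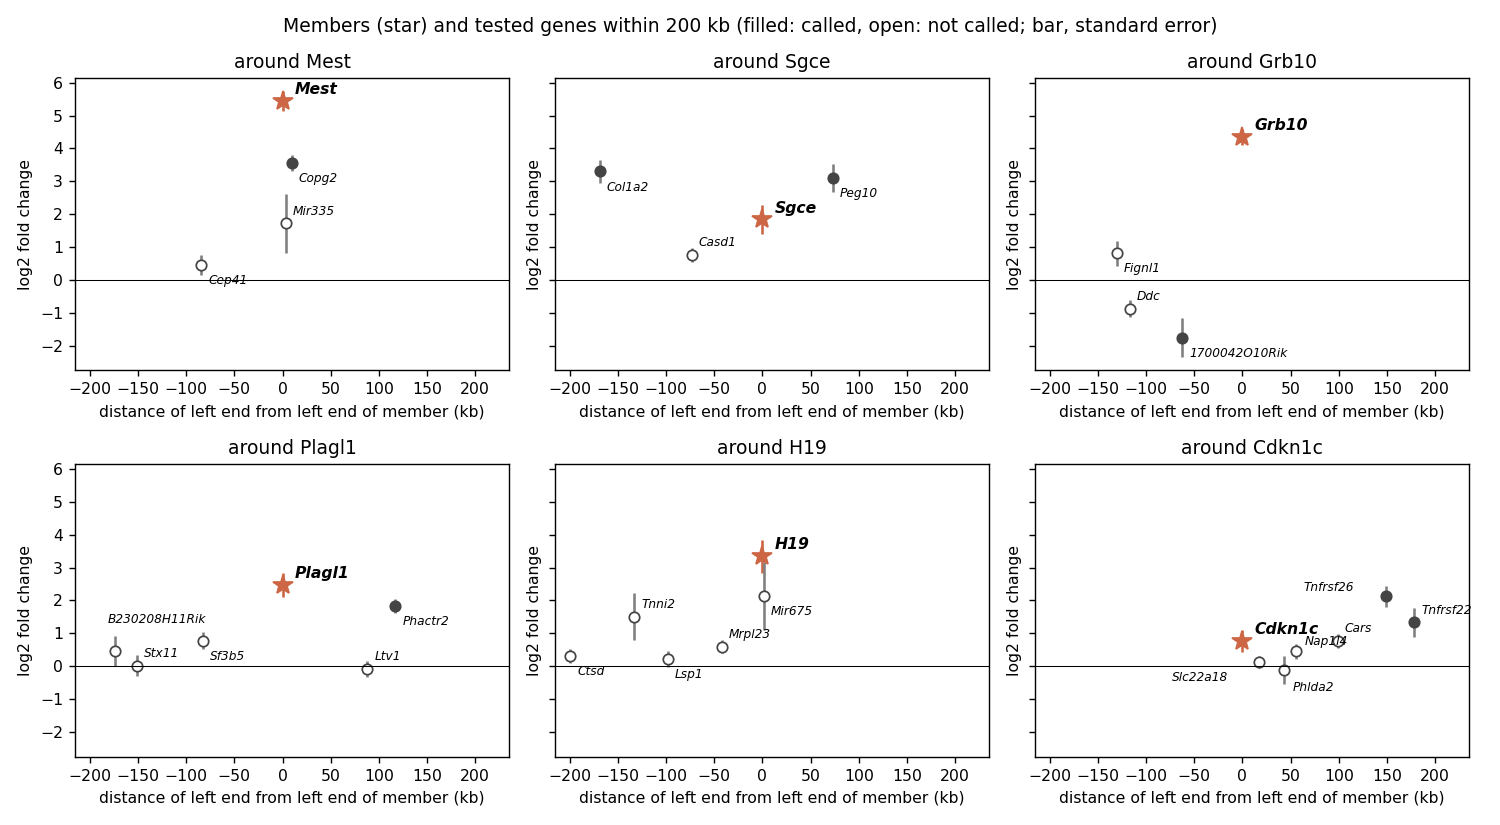
Log2 fold change (vertical axes, RPKM as deposited) of the members Mest, Sgce, Grb10, Plagl1, H19 and Cdkn1c (stars) and of the tested genes near them, against the distance between the left ends of their rows in kb (horizontal axes); filled points were called, open points were not, and bars are standard errors. Mest (5.44) and Grb10 (4.35) stand above all of their tested neighbours, whereas Sgce (1.84) lies below Col1a2 (3.30) and Peg10 (3.11).

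For Mest and Sgce, a neighbour on the opposite strand lay directly beside the member. Copg2, a coat protein of Golgi vesicles, is on the opposite strand to Mest, and their rows share 913 bases at the ends of both genes. Copg2 was at 4.64 ± 1.72 RPKM in AdCMV mice and 52.9 ± 9.52 RPKM in AdVEGF mice (SD, n = 5 each). There were 1.62 to 2.74 Copg2 reads per Mest read in AdCMV mice and 0.533 to 0.669 in AdVEGF mice, without overlap. Whether reads were counted by strand is not given in the sources used here, so that in the shared bases the reads of both genes cannot be told apart. Peg10 and Sgce run away from each other with starts 102 bases apart and share no bases of their rows, with 0.571 to 1.95 Peg10 reads per Sgce read in AdCMV mice and 1.87 to 3.84 in AdVEGF mice. The rows of the precursors of miR-335, inside Mest, and of miR-675, inside H19, had 0 reads in AdCMV mice and 0 to 2 in AdVEGF mice, too few for a level of the microRNAs printed above.

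**Figure D4:**
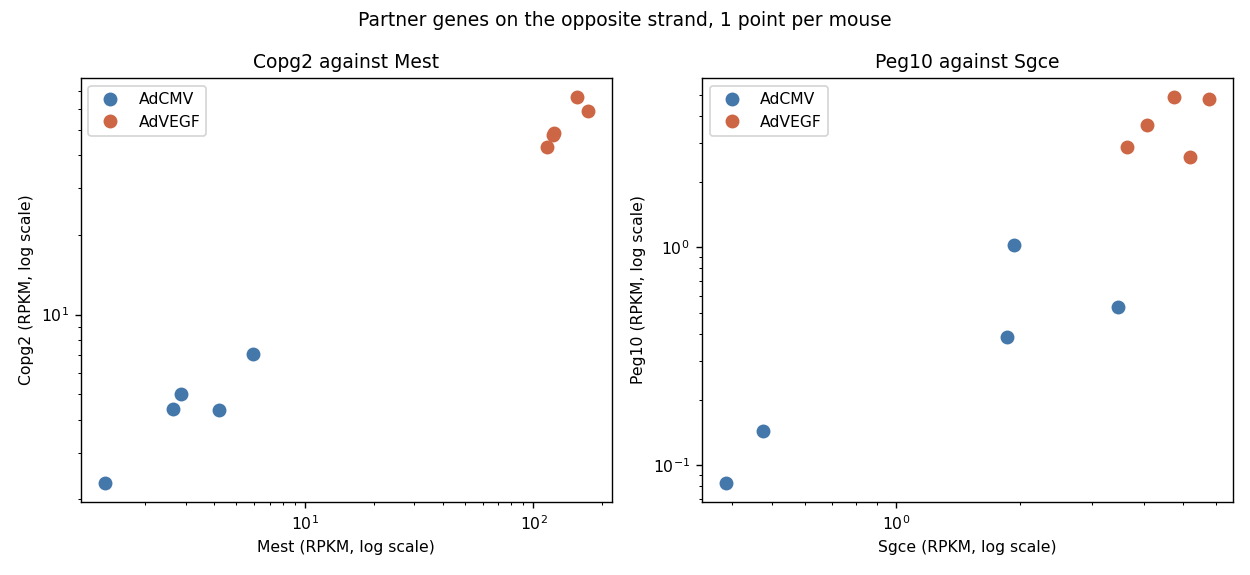
RPKM of Copg2 against Mest and of Peg10 against Sgce, 1 point per mouse, all axes logarithmic, AdCMV mice in blue and AdVEGF mice in orange. In both plots the 5 AdVEGF mice lie above and to the right of the 5 AdCMV mice.

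The ligand partners, receptors and binding proteins of IGF2 were listed apart from the members. Of 16 tested, 4 rose (25.0%, against 13% of all genes) and 12 did not pass, with a median log2 fold change of 0.47 against 0.38 for all genes. None fell by limma or by voom on the recovered reads, and none had an unadjusted p under 0.05 in that direction. The 4 rose also after median-ratio scaling. They were the binding proteins Igfbp3 (1.29 ± 0.723 to 13.2 ± 3.94 RPKM; log2 fold change 3.33, SE 0.29), Igfbp2 (2.25, SE 0.36) and Igfbp7 (1.74, SE 0.22), and Igf1r, the receptor that carries the growth signal of both IGFs (0.411 ± 0.245 to 1.79 ± 0.310 RPKM; 2.01, SE 0.35). Igf2r, the imprinted receptor that takes up and degrades IGF2, was at 7.12 ± 2.54 and 7.30 ± 0.493 RPKM, with a log2 fold change of 0.10 as deposited and -0.29 after median-ratio scaling. Igfbp4, the most abundant of the list in both groups (193 ± 19.2 and 304 ± 81.8 RPKM), did not pass, nor did Igf1 (63.2 ± 9.19 and 105 ± 21.1 RPKM).

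A list of genes of the fetal liver and of growth genes silenced after birth that are not imprinted served as another comparison. The list also held genes that were active in these adult livers. Of these, Zbtb20 was at 25.6 ± 5.29 RPKM in AdCMV and 30.4 ± 5.54 RPKM in AdVEGF mice (SD, n = 5 each). Zhx2 was at 2.34 ± 0.542 and 2.79 ± 0.468 RPKM. Of 12 tested, 2 rose (16.7%, against 13% of all genes), Mdk (1.93, SE 0.39), a growth factor of the embryo, and Hmga2 (1.71, SE 0.28), a chromatin protein of fetal cells, and 10 did not pass. None fell by limma or by voom, and none had an unadjusted p under 0.05 in that direction. The median log2 fold change was 0.49 as deposited, against 0.38 for all genes, and 0.12 after median-ratio scaling, against -0.00442. Afp, the main plasma protein of the fetal liver, was at 0.792 ± 0.624 and 1.10 ± 0.737 RPKM and did not pass.

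Markers of cell types moved with the members. All 12 endothelial markers rose, by log2 fold changes of 1.43 to 5.33 led by Emcn (5.33), Cldn5 (3.19) and Esam (3.17), and their summed level was 41.8 to 82.1 RPKM in AdCMV mice and 347 to 441 RPKM in AdVEGF mice. Of the 12 stellate cell and portal fibroblast markers 11 rose, led by Acta2 (3.91), Col1a1 (3.51) and Col1a2 (3.30), with a summed level of 23.5 to 60.4 and of 160 to 341 RPKM. Their part in the values of Mest, Grb10, H19, Plagl1 and Sgce was not tested.

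Hepatocyte markers were abundant in every mouse, at a summed level of 17200 to 22100 RPKM in AdCMV and 30500 to 37800 RPKM in AdVEGF mice, and 2 of 10 rose (Alb and Apoa1), neither of them after median-ratio scaling. Of 4 cholangiocyte markers tested only Spp1 rose, which other cells make too. Of 12 cell division genes Mki67 and Bub1 rose, neither after scaling. By voom 3 of the 12 rose, and by limma 10 had an unadjusted p under 0.05 upward. The median log2 fold change of the 12 was 0.88, against 0.38 for all genes. After scaling it was 0.48, against -0.00442. For mesothelial markers 0 of 2 and for erythroid markers 0 of 5 tested were called by limma, where 2 and 1 had an unadjusted p under 0.05 upward and voom called 0 and 1. Their summed levels overlapped between the groups. They were 83.1 to 229 and 129 to 239 RPKM for the mesothelial markers, and 738 to 1630 and 505 to 1820 RPKM for the erythroid markers. Krt8 alone, at 128 ± 58.1 and 185 ± 44.9 RPKM (SD, n = 5 each), made up nearly all of the mesothelial sum. Msln, Upk3b, Wt1 and Upk1b were too low to be tested, so the sum says little about them. The adrenal cortex, which keeps several imprinted genes active in the adult, gave little signal, since Cyp11b1 and Mc2r were at 0 in all 10 mice, the summed level was 1.63 to 3.74 and 1.27 to 4.48 RPKM, and 0 of 2 tested were called by limma or voom or had an unadjusted p under 0.05. Over these 8 lists 0 of 59 genes were called lower by limma or voom, and 0 had an unadjusted p under 0.05 in that direction.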

How the data were processed

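Liver RNA of 10 mice was analysed. Per the submitters' processing notes, reads were mapped with TopHat to mm9 and handled with HOMER; the authors normalized each library to its uniquely mapped tags and deposited RPKM per RefSeq transcript. The authors' own fold changes and adjusted p-values for the groups were not used. Reads behind each RPKM were recovered from the steps of the values, which were whole within 0.02 reads for 99.871% to 99.988% of a library's values; they gave the read numbers, the counting intervals and the voom alternative, which called 10 of the other imprinted genes higher.

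Groups came from the labels. limma 3.58.1 (R 4.3.3; lmFit, eBayes with trend) was run on log2(RPKM + 0.1), with Benjamini-Hochberg adjustment over 13933 genes, leaving out 5 transcripts without a symbol (0.00207% to 0.00534% of reads), and was tested on simulated data. Members and lists were chosen with earlier results of these data known. Named were all members, the called genes of each list (beyond 6, the 3 largest rises and falls), at most 2 abundant ones, and the 3 most alike per member. The other genes named were chosen after their values were seen. Nothing says that same-numbered mice were paired. Tables and plots used Python 3.11.15 and pandas 2.3.3. The 21 alternatives were 3 scalings, 2 pseudocounts, other filters, voom, treat, 1 row per symbol, a block for the replicate number and omission of each mouse in turn.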

Additional observations from a re-analysis of the deposited data

Results flagged for a closer look

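Of 63 groups of 5 mice examined, for 32 genes, 5 held a mouse far from the others of its group by Dixon's test, and chance alone marks about 1 in 20 groups. H19 was at 0.825 RPKM (17 reads) in AdCMV replicate 3, against 0.028 to 0.133 RPKM in the other AdCMV mice, and remained at 0.671 after median-ratio scaling. H19 was at 4.70 RPKM (69 reads) in AdVEGF replicate 1, against 1.50 to 2.32 RPKM in the others. Peg3 was at 2.92 RPKM (157 reads) in AdVEGF replicate 4, against 0.996 to 1.22 RPKM, and Meg3 was at 0.969 RPKM (15 reads) in the same mouse, against 0.495 to 0.625 RPKM. Among the IGF2 partners, Igfbp3 was at 2.57 RPKM (36 reads) in AdCMV replicate 5, against 0.851 to 1.13 RPKM in the other AdCMV mice.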

How the results depend on the processing

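The log2 fold changes of the 8 members tested and of the genes called in the lists kept their sign under each of the 21 alternatives that tested them (Meg3, 1700042O10Rik and Tnfrsf22 were tested in 20). Igf2 and Dlk1 were not tested at the main filter, and Igf2r, which was not called, went from 0.10 to -0.29 with median-ratio scaling. The number of members past the thresholds was 5 to 6 when 1 mouse was left out and 4 to 6 otherwise (4 with treat, which lost Sgce, and 6 with no filter, which added Igf2). Over all genes, 1808 were called higher and 214 lower as deposited. The calls were 1082 and 438 after median-ratio scaling, 1197 and 353 after upper quartile scaling, 1059 and 446 with library totals without the Mup genes, and 503 and 36 with treat, and 954 were called higher with a pseudocount of 1. Leaving out 1 mouse gave 1428 to 2359 higher and 179 to 218 lower. Of the other imprinted genes, 10 were called higher, 4 with a pseudocount of 1, 3 with treat and 8 to 11 when 1 mouse was left out. Against 0 called lower, each of the 3 scalings gave 2 and leaving out 1 mouse 0 to 1 (1 without AdVEGF replicate 1). Of the IGF2 partners, treat called 2 higher instead of 4, and leaving out 1 mouse gave 4 to 4 higher and 0 to 1 lower (1 without AdCMV replicate 3). Treat called 0 fetal liver genes higher instead of 2, and leaving out 1 mouse gave 2 to 2. Of the neighbours, 5 to 7 were higher when 1 mouse was left out, and 0 to 2 were lower, at 1 without AdCMV replicate 1 or 4 or AdVEGF replicate 5 and at 0 without AdCMV replicate 2 or 5 or AdVEGF replicate 2, 3 or 4. The 2 called lower became 0 with a pseudocount of 1, a minimum of 1 RPKM and treat, and 1 with a pseudocount of 0.01, no filter and voom. The cause was not tested, except that treat asks for a larger change and that a higher minimum tests fewer genes.

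With the replicate number as a block, 1933 genes were higher and 256 lower, 5 members stayed past the thresholds, 8 neighbours were higher instead of 6, and 1 other imprinted gene was lower instead of 0. Same-numbered mice of the groups had correlations of their deviations of 0.0357, 0.109, 0.00763, 0.096 and 0.291. AdCMV replicates 1, 4 and 5 correlated best with the AdVEGF mouse of their own number. AdCMV replicates 2 and 3 correlated best with AdVEGF replicates 4 and 2. Whether same-numbered mice share more than a number was not tested, and the block is given as an alternative. Depth limits Dlk1, Igf2, Meg3 and H19 most, where 1 read is worth 0.0183 to 0.0442, 0.0201 to 0.0485, 0.0389 to 0.0939 and 0.0284 to 0.0684 RPKM over the libraries.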
